A study of Mus musculus with 19 samples.

Results

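The adult to TAC comparison asked over which genes the coverage by 5-hydroxymethylcytosine (5-hmC) differed between cardiomyocytes (CMCs) of adult mice and CMCs of adult mice under pressure overload, and which functions those genes have. The unit was the gene. All 15498 autosomal protein-coding genes of at least 5 kb, of 20021 autosomal protein-coding genes in all, were measured in the 2 adult and the 2 TAC peak lists. A gene was placed on the higher side when both TAC replicates exceeded both adult replicates in the percentage of the gene that lay under peaks, and on the lower side when both fell below. A further 4 lists, from E14.5 and neonatal CMCs, did not enter this rule and served only to describe the genes.

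CMCs came from C57BL/6J mice, and the labels name no allele or transgene in these samples. The adult samples were from males of 2 months and the TAC samples from males 1 week after transverse aortic constriction (TAC), in which a suture narrows the aortic arch and the left ventricle has to pump against the raised pressure. Adult and TAC CMCs were released from the left ventricle by enzyme perfusion and enriched by sedimentation, which lets some other cells of the heart through. The labels do not name the adult animals as sham operated. Per the study, E14.5 CMCs and neonatal CMCs, from pups of 1 to 2 days, came from excised ventricles by enzyme digestion. Other cells were then left to adhere to dishes, so that isolation as well as age differed from the adult point. Genomic fragments with 5-hmC were pulled down with an antibody and sequenced (hMeDIP-seq), with 2 biological replicates per point. Neither the number of animals per replicate nor the number of reads per list is given in the files, so the depth behind each value is unknown.

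5-hmC is made from 5-methylcytosine by the ten-eleven translocation (TET) dioxygenases. It is an intermediate on the way back to unmodified cytosine and is also found as a lasting mark, which in the heart, as in brain, lies over the bodies of transcribed genes more than at their start sites. Pressure overload is known to make CMCs grow, to bring back genes of the fetal heart such as the natriuretic peptides and the slow myosin heavy chain, and to shift fuel use from fatty acids towards glucose. The gene lists below were drawn up around these functions.

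The following windows of 240 bases show what lay under peaks at which the points differed, since CG dinucleotides are the main site of the mark, and are printed with each CG in capitals. Each comes from the RefSeq reference of mm10 (GRCm38), on the plus strand, from an intron of the named gene, out of an interval that both replicates of 1 point shared and that no peak of the other point touched. The genes and windows were picked after the values were seen, and in each interval the window with the most CG dinucleotides was taken.
Atp5o: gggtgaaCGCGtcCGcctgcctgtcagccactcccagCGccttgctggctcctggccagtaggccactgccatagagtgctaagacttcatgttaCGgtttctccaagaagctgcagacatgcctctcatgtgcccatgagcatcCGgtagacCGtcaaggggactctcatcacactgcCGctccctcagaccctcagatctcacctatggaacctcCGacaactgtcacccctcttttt
Fh1: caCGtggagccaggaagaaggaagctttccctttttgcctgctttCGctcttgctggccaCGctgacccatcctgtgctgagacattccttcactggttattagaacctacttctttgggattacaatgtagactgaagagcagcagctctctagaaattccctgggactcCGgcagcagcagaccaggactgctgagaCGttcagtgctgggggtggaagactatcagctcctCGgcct
Gata4: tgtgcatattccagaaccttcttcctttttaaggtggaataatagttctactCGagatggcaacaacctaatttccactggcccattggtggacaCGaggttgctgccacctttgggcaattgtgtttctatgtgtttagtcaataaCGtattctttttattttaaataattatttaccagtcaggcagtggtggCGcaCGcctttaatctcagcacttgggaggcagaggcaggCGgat
Mef2c: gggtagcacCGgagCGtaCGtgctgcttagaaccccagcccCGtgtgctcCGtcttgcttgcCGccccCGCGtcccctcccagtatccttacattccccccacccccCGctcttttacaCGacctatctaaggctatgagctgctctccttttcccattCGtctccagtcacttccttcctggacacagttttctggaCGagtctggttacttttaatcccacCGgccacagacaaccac
Dao: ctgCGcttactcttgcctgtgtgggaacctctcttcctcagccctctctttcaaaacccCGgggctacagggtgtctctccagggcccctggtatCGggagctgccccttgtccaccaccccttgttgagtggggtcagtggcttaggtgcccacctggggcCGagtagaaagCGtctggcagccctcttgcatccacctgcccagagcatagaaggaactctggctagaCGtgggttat
Nrp2: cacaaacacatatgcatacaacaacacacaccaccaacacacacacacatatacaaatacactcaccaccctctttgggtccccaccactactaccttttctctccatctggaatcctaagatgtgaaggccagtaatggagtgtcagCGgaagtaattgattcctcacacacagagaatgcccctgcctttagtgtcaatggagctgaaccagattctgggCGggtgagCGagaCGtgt

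The windows of Atp5o (chr16:91927399-91927638, 3.99 kb from the start site), Fh1 (chr1:175618446-175618685, 6.95 kb), Gata4 (chr14:63220879-63221118, 24.2 kb) and Mef2c (chr13:83524398-83524637, 20.4 kb) were covered in both adult lists. Those of Dao (chr5:114023178-114023417, 19.4 kb) and Nrp2 (chr1:62727182-62727421, 23.9 kb) were covered in both TAC lists. They hold 9, 6, 6, 13, 6 and 4 CG dinucleotides, in the order Atp5o, Fh1, Gata4, Mef2c, Dao and Nrp2. The nearest TAC peak to the Atp5o interval was 1798 bp away in replicate 1 and 8638 bp away in replicate 2. At Mef2c these distances were 4999 and 4411 bp. The nearest adult peak to the Dao interval was 16454 bp away in replicate 1 and 1800 bp in replicate 2.

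The 4 lists were not alike, and the 2 from TAC hearts were further apart than the 2 adult lists. The adult lists held 104215 and 121214 peaks and the TAC lists 104964 and 107329, which covered 75.9, 96.8, 74.8 and 64.9 Mb of the autosomes. In TAC replicate 2, 54.0% of that length lay in the genes tested, against 66.8% in TAC replicate 1 and 68.2% and 67.5% in the adult lists. Its peaks also sat beside the CG-rich sites of the other lists. At the centres of peaks in genes there were 1.15 CG dinucleotides per 100 bp in TAC replicate 2 and 1.76 to 1.78 in the other 3 lists. At 500 bp to either side of the centre there were 1.27 in TAC replicate 2 and 1.18 to 1.22 in the others. According to the file headers the peak caller scaled the control to the antibody library in adult replicate 1, and the antibody library to the control in the other 3 lists. The part of these features in the results below was not tested. TAC replicate 1 is therefore given alone beside the counts of each functional list, and each percentage was multiplied by the mean autosomal peak length of the 4 lists over the list's own (scaled coverage).

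The mean scaled coverage of a gene was 7.31% and 7.69% in the adult lists and 7.30% and 5.31% in the TAC lists. The TAC mean was 1.20 percentage points below the adult mean, and the exact two-sided permutation p was 0.333, the smallest that 2 samples against 2 allow. TAC replicate 1 alone differed from the adult mean by −0.201 points, so that nearly all of the difference came from TAC replicate 2. In bulk CMC samples, fewer cells that carry the mark at a gene and less of the mark per cell cannot be told apart.

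Coverage was higher in TAC over 1813 genes, or 11.7% of those tested, and lower in TAC over 2452, or 15.8%. Without scaling these became 896 genes (5.78%) and 3525 genes (22.7%), and the median over genes of the log2 difference in coverage, with 1 percentage point added, moved from 0.00 to −0.23. All 896 of the former were among the 1813. Scaling to the peak length inside the genes tested gave 2209 genes higher (14.3%) and 2000 lower (12.9%), so the larger side depended on the scaling. TAC replicate 1 alone lay above both adult replicates over 4473 genes (28.9%) and below both over 3774 (24.4%), 53.2% in either direction, the reverse of the order with both TAC replicates. TAC replicate 2 alone lay above both over 4346 genes (28.0%) and below both over 5556 (35.8%), 63.9% in either direction. Without scaling, TAC replicate 1 alone lay above both over 2811 genes (18.1%) and below both over 4655 (30.0%), 48.2% in either direction.

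The gaps between the points were wider on the lower side. The median gap between the nearest replicates of the 2 points was 0.72 percentage points for genes higher in TAC and 2.21 points for genes lower in TAC. A gap under 1 point was found for 59.7% of the higher genes and 28.5% of the lower ones. Of the higher genes, 265 had no peak in either adult list, and of the lower genes 287 had none in either TAC list.

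No gene passed the test across genes. limma's moderated test on log2 (scaled coverage + 1), over 13959 genes with a peak in at least 1 of the 4 lists, called 0 genes (0%) in either direction at a Benjamini-Hochberg adjusted p under 0.05, and the smallest adjusted p was 0.257. At an unadjusted p under 0.05 it found 269 genes higher (1.93%) and 392 lower (2.81%). When the spread was shared over all 8 lists, limma called 47 genes, 14 higher and 33 lower in TAC. Trim72, which encodes a membrane repair protein of striated muscle, and Psma2, a proteasome subunit, were among the 33, and both had no peak in either TAC list. In simulated data of 13950 genes limma recovered 77 of 200 genes changed by 3 on the log2 scale, and 0 of 200 changed by 2 or by 1. Of the 88 genes it called at a change of 3, 11 had not been changed. The simulated spread was taken from the 2 adult lists alone, although the TAC lists were further apart, so that the simulation does not give the recovery in these data. The sides below are therefore a description of which replicates overlapped, and not genes shown to have changed.

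Along the genes, the difference between the points filled the gene body. Over the genes lower in TAC, the first twentieth of the body was covered to 10.3% and 9.62% in the adult lists and 6.13% and 6.29% in the TAC lists, and the fifth twentieth to 17.6% and 15.6% against 9.06% and 7.41%. The rule did not use the kilobase before the start site, although a peak across the start site enters both. This kilobase was covered to 7.82% and 7.47% in the adult lists and 6.90% and 6.01% in the TAC lists. Over the genes higher in TAC that kilobase was covered to 3.78% and 3.19% in the adult lists and 4.17% and 4.56% in the TAC lists, while the first twentieth of the body held 2.58% and 2.82% against 5.55% and 7.0%. The kilobase after the gene end held 9.07% and 10.4% against 8.51% and 5.88% for the lower genes, and 3.04% and 3.21% against 3.71% and 2.84% for the higher ones, where the replicates of the points overlapped.

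**Figure D1:**
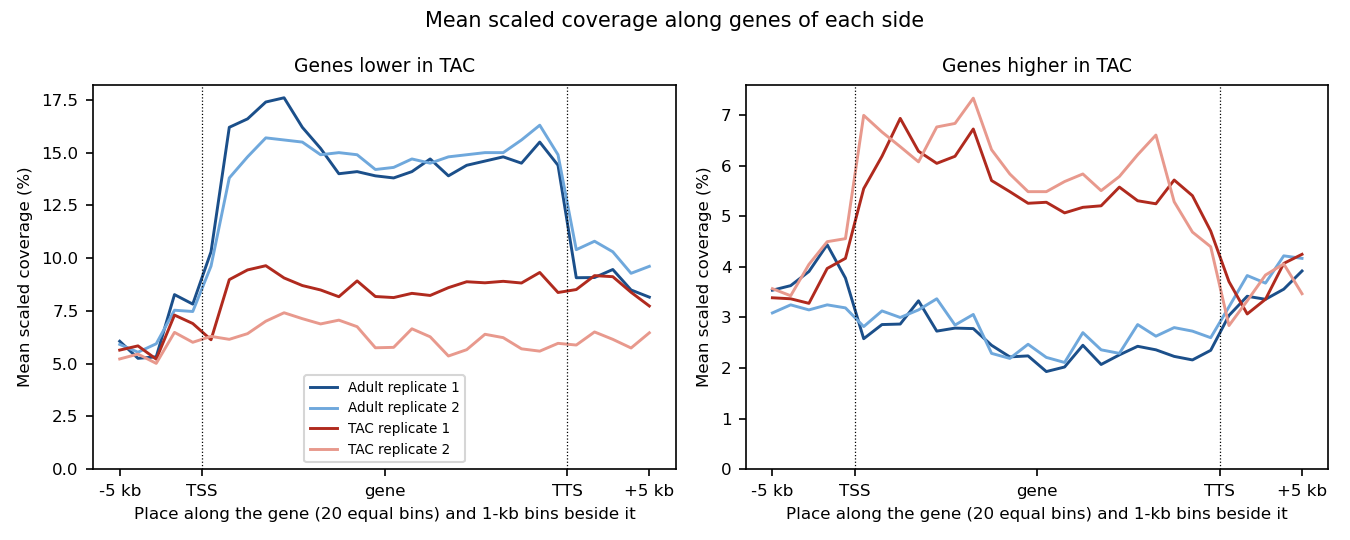
Mean scaled coverage (percent, vertical axis) in 20 equal parts of the gene and in 5 flanking bins of 1 kb on each side (horizontal axis), for the genes lower and higher in TAC, with 1 line per peak list. The lists separate inside the gene, where the rule made them do so, and lie within 2 percentage points of each other in every upstream bin, which the rule did not use.

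Exons and introns together make up the gene that the rule measured, so that their values on each side are a description. In exons of the lower genes the mean coverage was 17.3% and 17.8% in the adult lists and 10.4% and 6.23% in the TAC lists. In their introns it was 14.3% and 14.1% against 8.22% and 6.26%. Exons of the higher genes were covered to 2.74% and 3.31% in the adult lists and 6.26% and 5.31% in the TAC lists.

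Oxidation of fatty acids is the main fuel pathway of the adult heart. Of 63 genes of fatty acid uptake and β-oxidation, 19 (30.2%) were lower in TAC and 7 (11.1%) higher, beside 15.8% and 11.7% of all genes. With TAC replicate 1 alone 26 (41.3%) were lower and 16 (25.4%) higher, beside 24.4% and 28.9%. The same shares of all genes are the background for every list below. The median difference of the fatty acid list was −2.33 points, and 0.00 over all genes. These genes were, however, better covered than most, with means of 11.1% and 11.6% in the neonatal lists. Of all genes with a neonatal coverage of 10 to 20%, 26.8% were lower in TAC and 5.04% higher. With TAC replicate 1 alone these shares were 33.3% and 30.0%. The 22 genes with symbols of acyl-CoA dehydrogenases and synthetases did not lean to the lower side, with 5 (22.7%) higher and 4 (18.2%) lower. With TAC replicate 1 alone 8 of them (36.4%) were higher and 5 (22.7%) lower, and without scaling 2 and 5.

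Acadvl, the very-long-chain acyl-CoA dehydrogenase that opens β-oxidation, was covered to 61.5% and 52.2% in the adult lists and 24.1% and 27.4% in the TAC lists. Pnpla2, the lipase that starts the release of stored fat, had 59.2% and 52.6% against 35.7% and 26.2%. The adult values of both genes lay well above the TAC values, yet the number of peak centres per 10 kb ran the other way, higher in TAC by 1.97 at Acadvl and by 1.95 at Pnpla2, so that the adult coverage was made of fewer and longer peaks. The carrier Slc22a5, which brings carnitine into the cell, lay on the higher side with 1.90% and 0% in the adult lists and 5.78% and 4.44% in the TAC lists. Slc25a20, which moves acylcarnitines into mitochondria, had 6.64% and 6.46% against 8.68% and 9.51%, a call that was lost without scaling.

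Of 45 genes of the tricarboxylic acid cycle and pyruvate oxidation, 13 (28.9%) were lower and 3 (6.67%) higher. Idh3b, a subunit of the NAD-dependent isocitrate dehydrogenase, was covered to 33.3% and 34.7% in the adult lists and 10.2% and 8.07% in the TAC lists. Fh1, fumarate hydratase, had 33.0% and 24.2% against 16.8% and 4.97%, and its printed window lies in an interval that the adult lists shared. Both TAC lists lay below the adult lists at these genes and well apart from them. Dlst, a subunit of the 2-oxoglutarate dehydrogenase complex, was on the higher side with 11.7% and 14.7% against 19.4% and 20.4%, a call that was lost without scaling. With TAC replicate 1 alone this list leaned the other way, with 18 genes (40%) higher and 15 (33.3%) lower.

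Genes of the respiratory chain were near the background on the lower side. Of 68 such genes 12 (17.6%) were lower and 5 (7.35%) higher, and with TAC replicate 1 alone 18 (26.5%) and 24 (35.3%). Atp5o, a subunit of the stalk of ATP synthase at chr16:91925223-91931630, had the widest gap of all genes tested. It was covered to 38.4% and 51.6% in the adult lists, and no peak of either TAC list reached it. A single long peak of each adult list made up this coverage, and the neonatal lists had 39.1% and 12.2% there. The complex I subunit Ndufs7 had 29.3% and 26.6% against 14.3% and 8.21%, and its difference turned to 0.07 in favour of TAC when peak centres per 10 kb were counted. On the higher side were Ndufaf1, an assembly factor of complex I, with no peak in the adult lists and 11.7% and 18.4% in the TAC lists, and Cox6c, a subunit of cytochrome c oxidase, with none against 17.8% and 9.61%.

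Glucose is the fuel towards which the loaded heart shifts. Of 52 genes of glucose uptake, glycolysis and glycogen 10 (19.2%) were lower and 5 (9.62%) higher, and with TAC replicate 1 alone 11 (21.2%) were lower and 24 (46.2%) higher. Slc2a4, the insulin-dependent glucose transporter of muscle and fat, was covered to 50.3% and 44.0% in the adult lists and 23.7% and 10.2% in the TAC lists. The glycolytic aldolase Aldoa had 19.8% and 20.8% against no peak in either TAC list. Phkb, a regulatory subunit of the kinase that sets off glycogen breakdown, was on the higher side with 0.779% and 1.15% against 2.27% and 3.75%. Slc2a4 and Aldoa are short genes at which few peaks decide the value, and Phkb is a gene of 220 kb at which coverage was low in all 4 lists.

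Of 54 genes of mitochondrial dynamics, biogenesis and quality control 14 (25.9%) were lower and 3 (5.56%) higher, an order that turned with TAC replicate 1 alone, by which 16 (29.6%) were lower and 19 (35.2%) higher. Vdac1, the main channel of the outer membrane, had 23.5% and 22.3% in the adult lists and 12.3% and 10.6% in the TAC lists. Ppif, cyclophilin D of the permeability transition pore, had 18.9% and 34.7% against 8.31% and 9.57%. The fission protein Dnm1l was on the higher side by only 0.15 points, with 1.10% and 1.67% against 1.83% and 1.94%, and the call was lost without scaling. Among 50 regulators of these pathways 10 (20%) were lower and 3 (6.00%) higher, and with TAC replicate 1 alone 13 (26%) and 12 (24%). Rxra, the partner receptor of the PPARs, had 42.5% in both adult lists and 34.4% and 20.4% in the TAC lists. Prkag1, a regulatory subunit of the AMP-activated kinase, had 27.0% and 21.8% against 8.39% and 8.27%. Ppara itself was not called, with 29.4% and 19.2% against 21% and 16.3%, where TAC replicate 1 lay between the adult replicates.

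**Figure D2:**
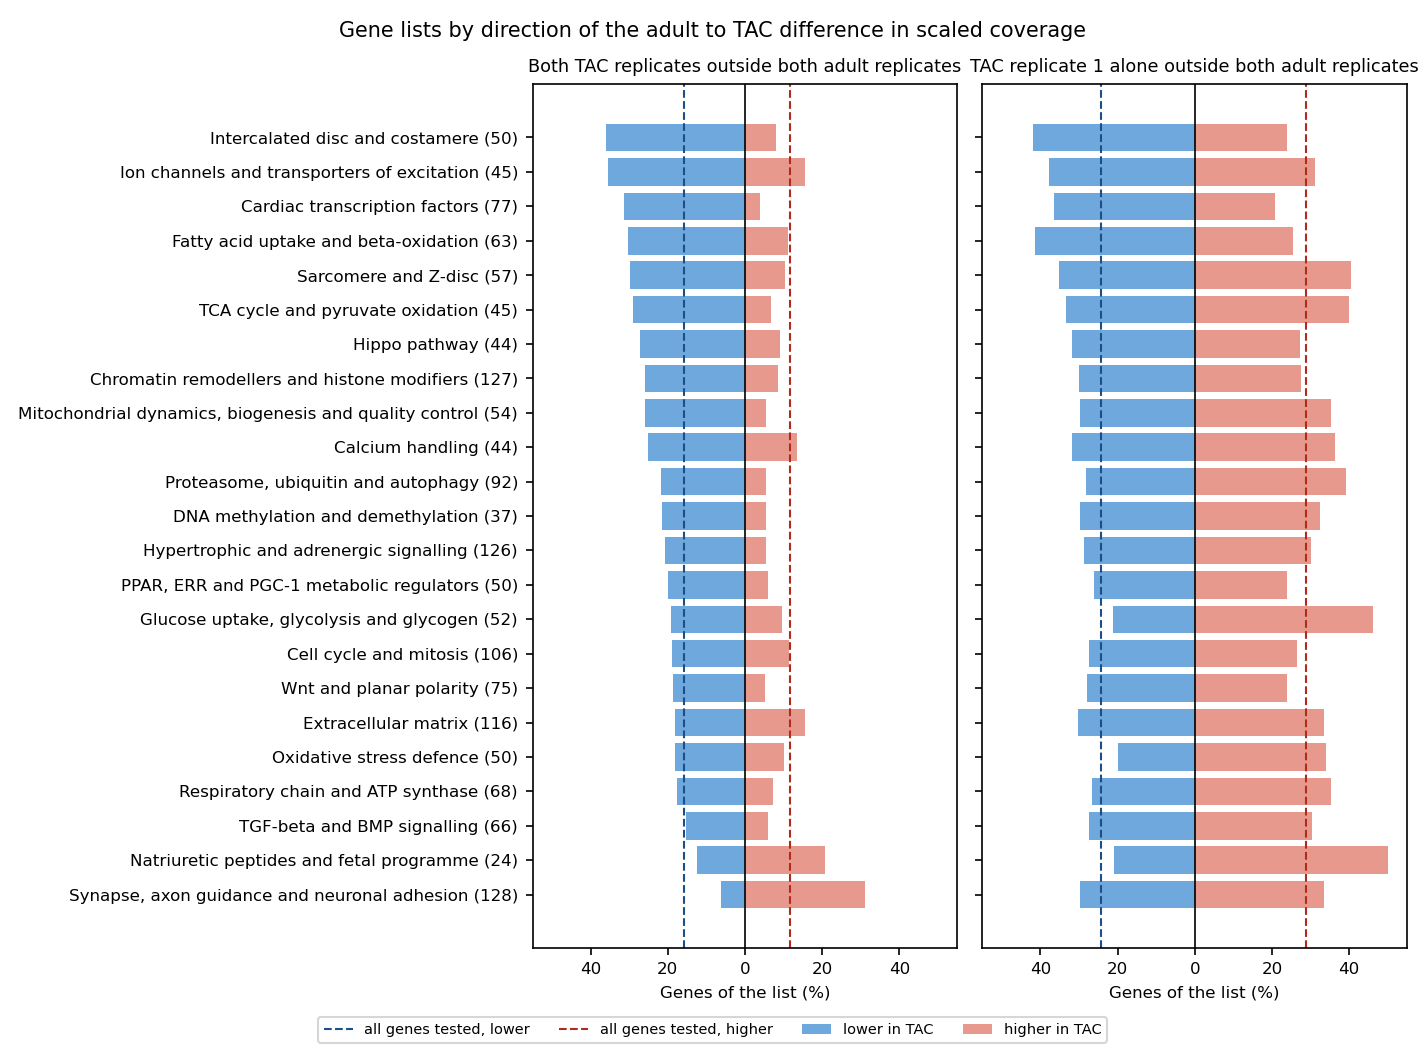
Percentage of the genes of each of 23 of the 24 functional lists (number of genes in brackets) lower in TAC (bars to the left) and higher in TAC (bars to the right), with all genes tested as dashed lines, for both TAC replicates (left panel) and for TAC replicate 1 alone (right panel). With both replicates 20 of these pass the lower line of 15.8%, and with TAC replicate 1 alone the right-hand bars of the glucose and fetal lists are the longest.

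Genes of the contractile apparatus lay on both sides. Of 57 genes of the sarcomere and Z-disc 17 (29.8%) were lower in TAC and 6 (10.5%) higher, beside 15.8% and 11.7% of all genes. The neonatal means of this list were 18.3% and 17.2%, and of all genes with a neonatal coverage of 10 to 20%, 26.8% were lower and 5.04% higher. With TAC replicate 1 alone 20 (35.1%) were lower and 23 (40.4%) higher, beside 24.4% and 28.9% of all genes. Mybpc3, the cardiac myosin-binding protein C, was covered to 17.1% and 17.9% in the adult lists and 2.85% and 6.56% in the TAC lists, with a limma difference of −1.78 ± 0.55 (SE) on the log2 scale and a Benjamini-Hochberg adjusted p of 0.827. Cryab, a small heat shock protein of the Z-disc, had 10.4% and 9.86% and no peak in either TAC list. The ventricular light chain gene Myl3 had 12% and 14.3% against 8.55% and 2.40%, a direction that turned with peak centres per 10 kb, by which it was higher in TAC by 0.12.

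The 6 genes of this list on the higher side were Myh6, Myh7, Myot, Fhl2, Xirp1 and Xirp2. Myh6, the α-myosin heavy chain of the adult mouse heart at chr14:54941921-54966607, was covered to 2.09% and 4.56% in the adult lists and 10.1% and 10.3% in the TAC lists. The neonatal lists had 31.2% and 37.6% there, above all 4. Its limma difference was 1.43 ± 0.52 (SE), with an adjusted p of 0.877. The β-myosin heavy chain gene Myh7, its neighbour at chr14:54970684-54994626 and the classic gene of the fetal programme, had 2.15% and 6.75% in the adult lists, 14.0% and 8.25% in the TAC lists and 26.6% and 14.1% in the neonatal lists. The call of Myh6 held under every alternative, whereas that of Myh7 was lost without scaling and with peak centres in place of base pairs. The genes are close paralogues, so that the values of each are uncertain where their sequences match.

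Xirp1, an actin-binding repeat protein of the intercalated disc, had 1.55% and 3.52% in the adult lists, 10.1% and 6.12% in the TAC lists and 44.0% and 43.3% in the neonatal lists. Its relative Xirp2 had 4.67% and 3.30% against 8.38% and 5.69%, with only 2.26% and 1.24% in the neonatal lists. Myot, myotilin of the Z-disc, had no peak in the adult lists and 3.88% and 7.27% in the TAC lists. At Myh6, Myh7 and Xirp1 the TAC values thus lay between the adult and the neonatal values, and at Xirp2 and Myot above both.

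Ion channels carry the action potential and intercalated discs join CMCs end to end. Of 45 ion channels and transporters of excitation 16 (35.6%) were lower and 7 (15.6%) higher, and with TAC replicate 1 alone 17 (37.8%) and 14 (31.1%). Gja3, a gap junction connexin, was covered to 22.1% and 21.9% in the adult lists and 10.6% and 5.12% in the TAC lists. Of 50 genes of the intercalated disc and costamere 18 (36.0%) were lower and 4 (8.0%) higher, and with TAC replicate 1 alone 21 (42.0%) and 12 (24%). Jup, plakoglobin of desmosomes and adherens junctions, had 43.0% and 44.9% against 30.1% and 29.3%, where the replicates of each point lay close together and the points far apart. Bcar1, a scaffold of integrin signalling, had 28.3% and 36.8% against 21.8% and 9.14%.

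Of 44 calcium-handling genes 11 (25%) were lower and 6 (13.6%) higher, whereas with TAC replicate 1 alone 14 (31.8%) were lower and 16 (36.4%) higher. Camk2g, a calcium/calmodulin-dependent kinase, had 27.5% and 22.1% in the adult lists and 18.5% and 14.0% in the TAC lists. Tmem38a, a potassium channel of the sarcoplasmic reticulum, had 15.0% and 24.5% against 12% and 3.90%. Gaps of the 6 higher genes were at most 0.68 points, the value at Letm1 of the mitochondrial inner membrane, and none of the 6 was on the higher side without scaling.

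Among 77 cardiac transcription factors 24 (31.2%) were lower in TAC and 3 (3.90%) higher, and without scaling 44 and 3. With TAC replicate 1 alone 28 (36.4%) were lower and 16 (20.8%) higher. Gata4, a zinc finger factor that drives heart formation and hypertrophic transcription, was covered to 10.3% and 12.3% in the adult lists, 7.56% and 2.60% in the TAC lists and 24.2% and 17.8% in the neonatal lists. Stat5a had 36.2% and 26.0% against 20.2% and 9.34%, and Nfatc1, a target of calcineurin, 20.5% and 22.1% against 14.2% and 11.1%. Mef2c, a MADS-box factor of muscle genes, was lower by only 0.15 points, with 9.08% and 6.84% against 6.25% and 6.70%, and its call was lost when coverage was scaled to the peak length inside genes. Srf, the MADS-box factor that serves actin and immediate early genes, was the opposite case. It had 14.2% and 8.10% in the adult lists and 29.6% and 16.7% in the TAC lists, and the call was lost when the kilobase around the start site was left out. Gata6 and Mef2a were not called, since in Gata6 TAC replicate 1 lay above and replicate 2 below the adult lists and in Mef2a the points overlapped.

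Of 24 genes of the natriuretic peptides and fetal programme 5 (20.8%) were higher in TAC and 3 (12.5%) lower, and with TAC replicate 1 alone 12 (50%) and 5 (20.8%). Without scaling this turned to 3 higher and 7 lower. Besides Myh7, Xirp1 and Xirp2 the higher genes were Npr3, with a gap of 0.19 points, and Cilp, a matrix protein made in pressure-loaded hearts, with no peak in the adult lists and 3.39% and 3.91% in the TAC lists. The lower genes were Tnni1, the slow skeletal troponin I of the fetal heart, with 41.7% and 25.2% against 19.5% and 5.33%, Hcn4, a pacemaker channel, with 17.2% and 22.7% against 15.5% and 11.2%, and the calcium channel gene Cacna1h with a gap of 0.38 points. Tnni1 overlapped between the points when the peaks were widened by 500 bp.

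Hypertrophic and adrenergic signalling had 26 of 126 genes (20.6%) lower and 7 (5.56%) higher, and with TAC replicate 1 alone 36 (28.6%) and 38 (30.2%). Akt1, a kinase of growth and survival signalling, was covered to 43.9% and 46.7% in the adult lists and 26.9% and 12.6% in the TAC lists. Gnai2, an inhibitory G protein subunit, had 35.9% and 36.5% against 22.2% and 25%. The higher genes of this list had gaps of at most 1.23 points, the value at the receptor kinase Grk4. Of 92 genes of the proteasome, ubiquitin and autophagy 20 (21.7%) were lower and 5 (5.43%) higher, whereas with TAC replicate 1 alone 26 (28.3%) were lower and 36 (39.1%) higher. Ulk1, the kinase that starts autophagy, had 12.2% and 20.6% in the adult lists and 0% and 2.36% in the TAC lists. Nfe2l2, the transcription factor of the antioxidant response, had 24.5% and 17.7% against 12.2% and 4.14%.

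Chromatin genes were on the lower side in 33 of 127 cases (26.0%) and on the higher side in 11 (8.66%), and with TAC replicate 1 alone in 38 (29.9%) and 35 (27.6%). Prmt1, the main arginine methyltransferase, was covered to 27.2% and 25.9% in the adult lists, and neither TAC list had a peak in it. Smyd2, a lysine methyltransferase, had 49.4% and 43.9% against 30.8% and 13.1%. Ep400, an ATPase of the remodeller that places histone H2A.Z, was on the higher side with 1.45% and 1.52% against 3.80% and 3.97%, and Cbx3, a heterochromatin protein, had no adult peak against 4.0% and 4.61%.

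Tet3, Tet1, Tdg and Dnmt1 were among the genes of DNA methylation and its removal that lay on the lower side. Of 37 genes of DNA methylation and demethylation 8 (21.6%) were lower and 2 (5.41%) higher, and with TAC replicate 1 alone 11 (29.7%) and 12 (32.4%). Tet3 had 30.2% and 26.4% in the adult lists and 23.5% and 13.1% in the TAC lists. Tet1 had 9.03% and 8.83% against 8.64% and 6.41%, a gap of 0.19 points. Tet2 was not called, with 5.07% and 5.58% against 8.46% and 3.98%, so that the TAC replicates stood on opposite sides of the adult ones. The thymine DNA glycosylase Tdg, which cuts out the further oxidised forms of the base, had 19.2% and 11.8% against 4.99% and 5.75%. The maintenance methyltransferase Dnmt1, singled out here after its values were seen, had 4.89% and 5.18% against 1.99% and 1.43%. On the higher side was Smug1, another glycosylase of base excision repair, with no adult peak against 6.77% and 12.1%.

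**Figure D3:**
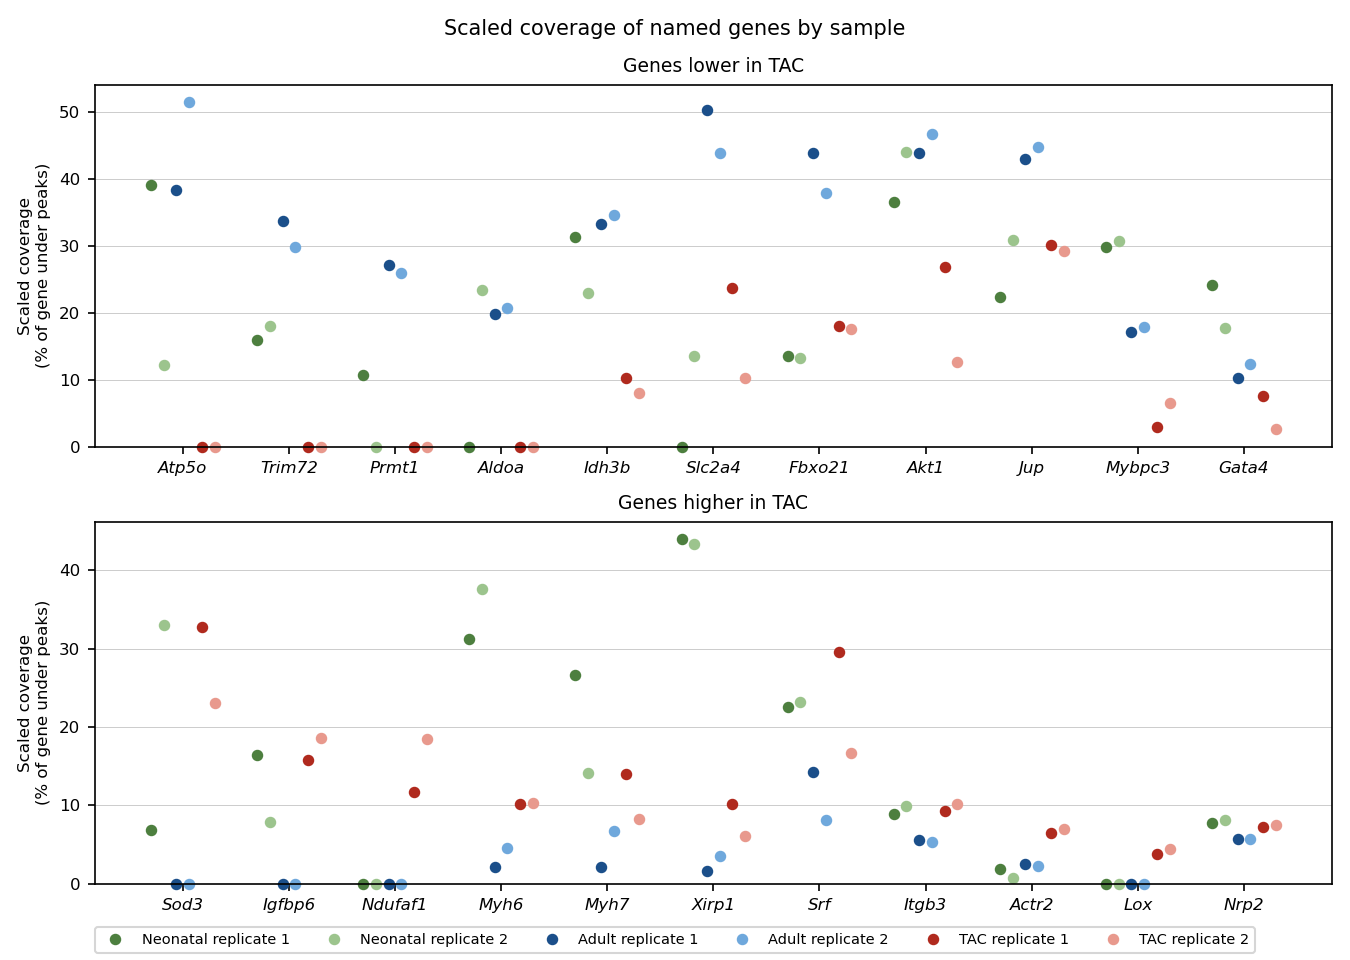
Scaled coverage (percent of the gene under peaks, vertical axis) of 11 genes lower and 11 genes higher in TAC, with 1 point per peak list of neonatal, adult and TAC CMCs. At Prmt1, Aldoa, Trim72 and Atp5o both TAC points lie at 0, and at Myh6, Myh7 and Xirp1 the TAC points lie above the adult and below the neonatal ones.

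Among genes of at least 20 kb, where single peaks weigh less, the widest gaps on the lower side were at Fbxo21, Fbxo31, Akt1, Miga2, Micall1, Sema3f, Upf1 and Smtn. Fbxo21, a substrate receptor of a ubiquitin ligase, was covered to 43.9% and 38.0% in the adult lists, 18% and 17.6% in the TAC lists and 13.6% and 13.2% in the neonatal lists. Sema3f, a secreted guidance cue, had 22.0% and 23.5% against 6.98% and 7.32%. At both genes the replicates of each point lay within 6 points of each other, and both calls held under every alternative. Fbxo31 had 63.1% and 49.0% against 29.1% and 2.05%, Miga2, a protein of mitochondrial fusion, 30.2% and 38.8% against 13.4% and 10%, and the nonsense-mediated decay helicase Upf1 27.7% and 25.2% against 11.1% and 2.77%. Among genes of 5 to 20 kb, Dolpp1 had 49.7% and 52.9% against 12% and 20.2%, but peak centres per 10 kb turned its direction by 0.68 towards TAC.

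The widest gaps among higher genes of at least 20 kb were at Dao, Pigr, Otop2, Mmd, Ccdc126, Gm11992, Yy1 and Myh6. Dao, a D-amino acid oxidase of peroxisomes, was covered to 2.96% and 2.5% in the adult lists and 10.8% and 11.3% in the TAC lists, and the printed window lies in one of the intervals that the TAC lists shared. Pigr, the transport receptor of polymeric immunoglobulins, had no adult peak against 8.19% and 7.08%. Mmd had 22.6% and 21.9% against 32.6% and 28.9%, and the zinc finger factor Yy1 10.4% and 15.6% against 21.2% and 22.2%, and both of these calls were lost without scaling. Among shorter genes the widest gap was at Sod3, the extracellular superoxide dismutase, with no adult peak against 32.8% and 23.1%. Igfbp6, which binds insulin-like growth factors, had none against 15.8% and 18.6%.

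Of the 116 extracellular matrix genes 18 (15.5%) were higher and 21 (18.1%) lower, and without scaling 8 and 30. With TAC replicate 1 alone the order turned, with 39 (33.6%) higher and 35 (30.2%) lower, as it did when coverage was scaled to the peak length inside genes, with 21 higher and 17 lower. Lox, which crosslinks collagen, had no adult peak against 3.79% and 4.37%, with none in the neonatal lists either. The integrin Itgb3 had 5.58% and 5.34% in the adult lists and 9.24% and 10.2% in the TAC lists, and its call held under every alternative. Adamtsl4, a protein of fibrillin microfibrils, lay on the other side with 75.5% and 54.4% against 34.4% and 21.7%, although it turned by 0.69 towards TAC in peak centres per 10 kb. Only 3 of the 18 higher genes and 12 of the 21 lower ones had gaps of at least 1 point.

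The following genes of the actin cytoskeleton were picked by the rule as those with the widest gaps, 2 on each side, so that their number says nothing of the balance between the sides. Tagln2, an actin-binding protein, had 41.8% and 40.3% in the adult lists and 20.1% and 10.9% in the TAC lists. The GTPase gene Rhoc had 50.7% and 46.8% against 32.5% and 0%, and turned by 0.12 towards TAC in peak centres per 10 kb. On the higher side, the profilin gene Pfn2 had 0% and 6.89% against 17.9% and 20.6%, and Actr2, a subunit of the Arp2/3 complex that branches actin filaments, 2.47% and 2.22% against 6.49% and 6.95%.

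Of 44 genes of the Hippo pathway, which restrains CMC growth, 12 (27.3%) were lower and 4 (9.09%) higher, and with TAC replicate 1 alone 14 (31.8%) and 12 (27.3%). Of 75 genes of Wnt signalling and planar polarity 14 (18.7%) were lower and 4 (5.33%) higher, and with TAC replicate 1 alone 21 (28%) and 18 (24%). The other lists lay near the shares of all genes on the lower side, with 20 of 106 cell cycle genes (18.9%), 9 of 50 genes of oxidative stress defence (18%) and 10 of 66 genes of TGF-β and BMP signalling (15.2%). On the higher side these held 12 (11.3%), 5 (10%) and 4 (6.06%). With TAC replicate 1 alone they had 29, 10 and 18 genes lower and 28, 17 and 20 higher, so that the order turned in the last pair of lists.

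The list of synapse, axon guidance and neuronal adhesion genes stood on the other side from the cardiac lists. Of its 128 genes 40 (31.2%) were higher in TAC and 8 (6.25%) lower, and without scaling 21 and 11. The median length of these genes was 426 kb and their coverage was low in all lists, the adult means being 2.55% and 3.11% and the TAC means 2.78% and 3.36%. Nrp2, a receptor of semaphorins and vascular growth factors, was covered to 5.67% and 5.68% in the adult lists and 7.2% and 7.51% in the TAC lists. This call was lost without scaling, with 5.51% and 7.04% against 6.89% and 6.24%. Dlg4, a scaffold of excitatory synapses, had 4.20% and 4.95% against 6.65% and 19.1%. Only these 2 of the 40 had gaps of at least 1 point, and TAC replicate 1 alone gave 43 genes (33.6%) higher and 38 (29.7%) lower, close to the 28.9% and 24.4% of all genes. Of 26 glutamate receptor genes 13 (50%) were higher and 1 (3.85%) lower, and with TAC replicate 1 alone 13 (50%) and 6 (23.1%). Without scaling 6 were higher and 4 lower.

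Across the 24 functional lists, 21 had a larger share of genes lower in TAC than all genes, and 5 a larger share higher. TAC replicate 1 alone gave 21 lists with a larger share lower and 16 with a larger share higher than all genes, so that these lists held more genes outside the adult range on each side. Coverage was also higher in these lists to begin with, since the mean of 22 of the 24 was above that of all genes in both adult lists. Over all genes the share lower in TAC grew with neonatal coverage, as given below. The shares of all genes are thus not those of genes covered like most of these lists. The lists with more genes higher than lower were those of the fetal programme and of the synapse with both TAC replicates, the latter also without scaling, whereas 14 of the 24 had more genes higher than lower with TAC replicate 1 alone.

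The shares on each side varied with the neonatal coverage of a gene, which the rule did not use. Genes were grouped by the mean of the neonatal lists. Of 2200 genes with no neonatal peak, 4.77% were higher in TAC and 3.91% lower. Of 3156 genes with a neonatal coverage above 0 and up to 2%, 21.8% were higher in TAC and 7.54% lower. Of 730 genes with 20% and more, 1.92% were higher and 31.8% lower. In that last group the mean coverage was 29.1% and 29.9% in the adult lists, 29.1% in TAC replicate 1 and 15.6% in TAC replicate 2. TAC replicate 1 alone lay above both adult lists in 28.4% of its genes and below in 35.5%, against 33.6% and 17.9% in the group up to 2%. With that replicate alone the share lower thus still grew with neonatal coverage, while the share higher stayed between 28.4% and 33.6% in the 5 groups with neonatal peaks.

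**Figure D4:**
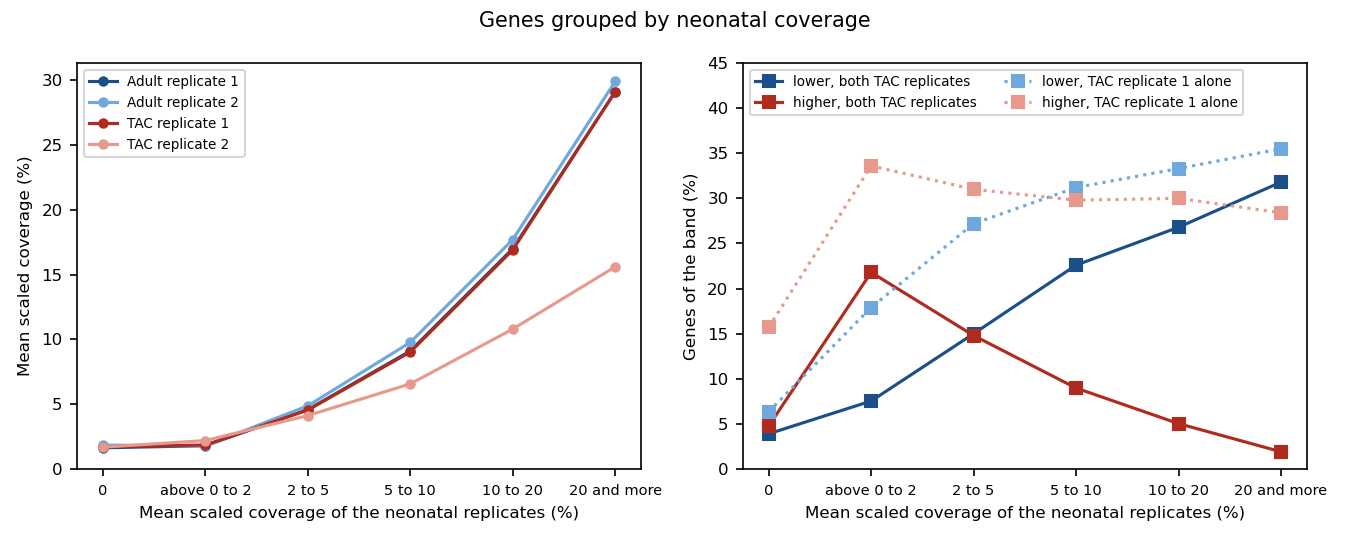
Genes grouped by mean neonatal coverage (horizontal axis), with the mean scaled coverage in each adult and TAC list (left panel, percent) and the percentage of genes lower and higher in TAC for both replicates (solid lines) and for TAC replicate 1 alone (dotted lines, right panel). TAC replicate 2 falls away from the other lists as coverage rises, to 15.6% in the last group.

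The direction from the neonatal to the adult point differed between the sides. The neonatal mean exceeded the adult mean for 72.1% of the genes higher in TAC, 13.9% of those lower in TAC and 37.6% of all genes. The same adult lists enter both differences, and no test was made. The higher genes had neonatal means of 3.68% and 3.55%, adult means of 2.46% and 2.68% and TAC means of 5.66% and 6.01%, and at E14.5 they had 3.72% and 3.70%. The lower genes had neonatal means of 9.0% and 8.84%, adult means of 14.8% and 14.7% and TAC means of 8.61% and 6.32%, and at E14.5 they had 7.97% and 6.54%. The order of the adult and TAC means on each side was set by the rule.

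Genes on the higher side were longer and poorer in CG dinucleotides. Their median length was 40 kb, against 28.0 kb on the lower side and 25.3 kb for all genes. Their median density was 1.01 CG dinucleotides per 100 bp, against 1.39 and 1.19. Of genes of at least 100 kb, 20.9% were higher and 15.1% lower, and of genes of 5 to 10 kb, 6.42% and 12.4%. TAC replicate 1 alone gave 33.5% and 28.0% for the long genes and 24.3% and 16.9% for the short ones, more higher than lower in each.

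Within the lower genes, 10266 intervals were covered in both adult lists. TAC replicate 1 overlapped 48.8% of them and had a peak within 1 kb of a further 13.6%. TAC replicate 2 overlapped 28.8% and had a peak within 1 kb of a further 20.3%. No peak of either TAC list lay within 1 kb of 23.3%, against 18.7% of the 31221 such intervals in all genes. Within the higher genes, 700 intervals were covered in both TAC lists, of which adult replicate 1 overlapped 33.4% and adult replicate 2 55.1%. No adult peak lay within 1 kb of 23.6% of them, against 6.58% of the 9558 such intervals in all genes. The rule chose the genes by coverage in these same lists, so that both excesses over all genes follow from it and are a description.

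**Figure D5:**
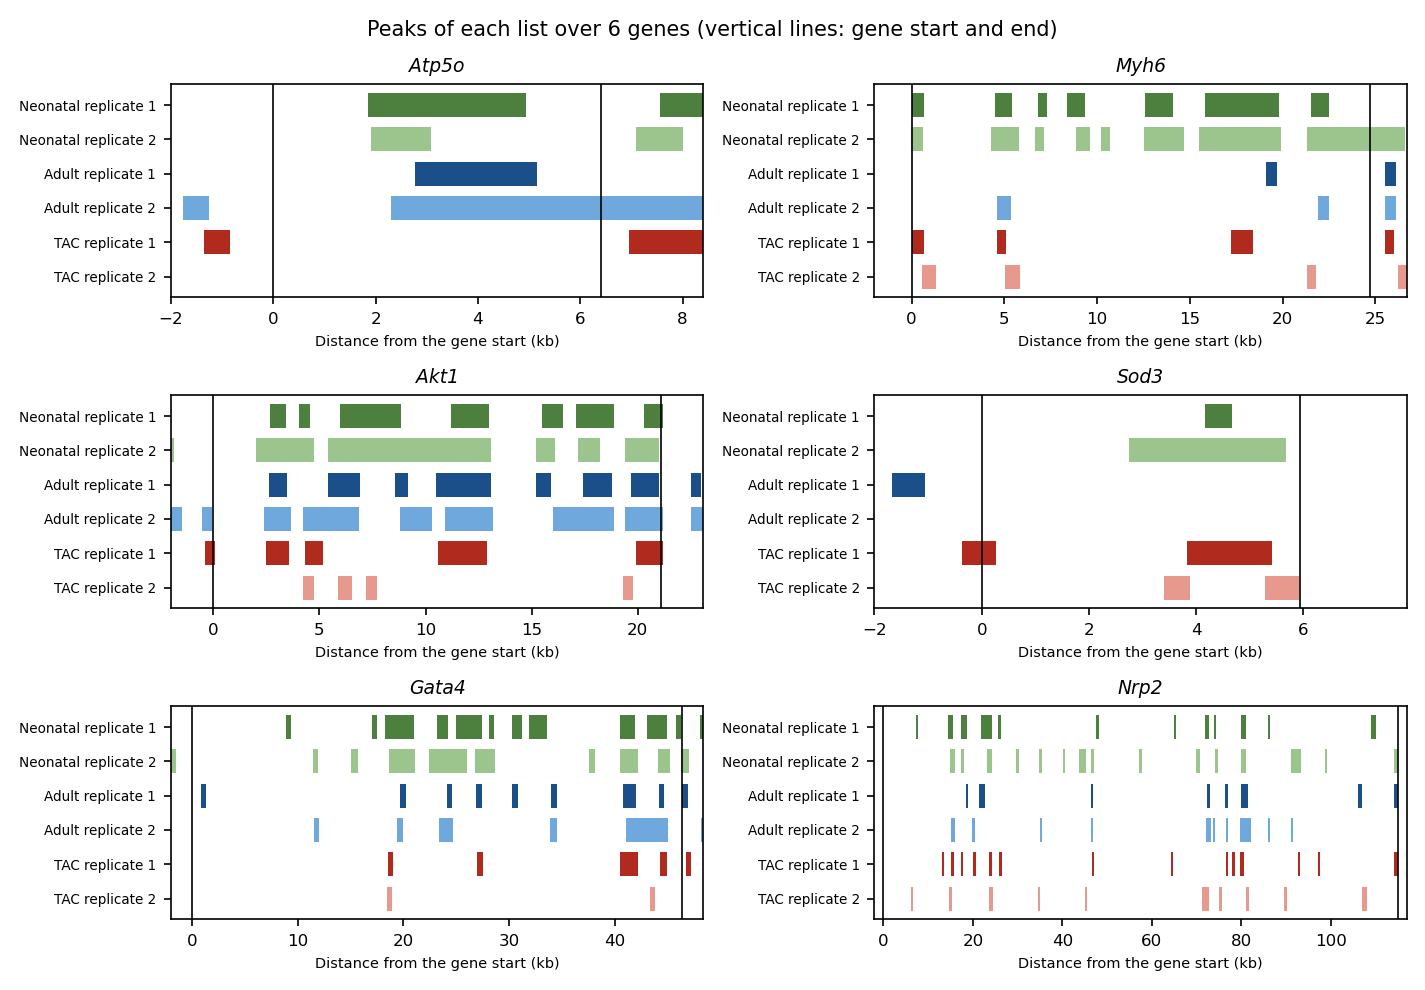
Peaks of each neonatal, adult and TAC list (rows) over Atp5o, Akt1 and Gata4, lower in TAC, and Myh6, Sod3 and Nrp2, higher in TAC, by distance from the gene start in kb. The adult lists share a peak in Atp5o that no TAC list has, and both TAC lists have peaks in Sod3, in which no adult list has one.

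Markers of other cell types of the heart gave no common direction. Of all genes tested 11.7% were higher and 15.8% lower, and with TAC replicate 1 alone 28.9% and 24.4%. Of 13 fibroblast genes 1 (7.69%) was higher (Fbln2, by 0.27 points, which turned without scaling) and 0 were lower. With TAC replicate 1 alone 4 (30.8%) of the fibroblast genes were higher and 1 (7.69%) lower. The sum of their coverage was 32.7 and 40.1 in the adult lists and 54.3 and 25.9 in the TAC lists, and Col3a1, Lum and Thy1 had no peak in any of the 4. Of the mesenchymal genes Col1a2 and Vim neither was called. Col1a2 had 0% in both adult lists and 0% and 1.68% in the TAC lists. Vim was not bare, with 6.05% and 5.93% in the adult lists and 6.15% and 0% in the TAC lists. Endothelial genes had 2 of 16 (12.5%) higher and 2 (12.5%) lower, and smooth muscle and pericyte genes 4 (28.6%) and 3 (21.4%) of 14. Macrophage and leukocyte genes had 3 (18.8%) and 3 (18.8%) of 16. Sox17 and Fcgr1 were at 0% in all 4 lists. With TAC replicate 1 alone the endothelial, smooth muscle and macrophage lists had 3, 5 and 5 genes higher and 4, 3 and 5 lower. Their sums were 97.0 and 108 against 105 and 80.4, 175 and 190 against 210 and 140, and 55.4 and 58.8 against 45 and 80.0, in that order. The TAC replicates stood on opposite sides of the adult ones in the smooth muscle, macrophage and fibroblast sums, and TAC replicate 1 lay between the adult lists in the endothelial sum. Of 18 CMC markers 1 (5.56%) was higher (Myh6) and 6 (33.3%) were lower, whereas with TAC replicate 1 alone 6 (33.3%) were higher and 6 (33.3%) lower. The sums were 239 and 260 against 255 and 153, with Pln, Actc1 and Fabp3 at 0% in all 4. The part of cell composition in the results was not tested.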

How the data were processed

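5-hmC was measured by hMeDIP-seq in CMCs. Per the submitters' processing notes, reads were aligned with BWA 0.7.4-r385 to mm10, duplicates were handled with Picard and peaks were called with HOMER. The deposited peak lists give coordinates, and their score column holds 1 for every peak, so the score carries no height. Per the file headers, HOMER brought the control to the size of the antibody library for adult replicate 1 and did the opposite for adult replicate 2 and both TAC lists. Input and sh-control libraries were not analysed here, and 0 per-sample columns were left unused. Peak callers miss weakly enriched ground, so coverage depends on depth, which is not given.

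From the peak coordinates, the percentage of each RefSeq gene (GRCm38.p6) under peaks was computed with Python 3.11.15, numpy 2.4.6, pandas 2.3.3 and bedtools 2.31.1, and scaled to the autosomal peak length. Groups came from the labels. Sides were called by non-overlap of replicates. limma 3.58.1 (R 4.3.3) tested log2 (scaled coverage + 1), two-sided, with Benjamini-Hochberg adjustment, and was tested on simulated data. The members and the 24 functional lists, 5 marker lists and 40 symbol families were chosen with earlier results of these data known. Named genes were the 8 genes of at least 20 kb and the 4 of 5 to 20 kb with the largest gap on each side, the 2 members of each list with the largest gap on each side, and genes that the study names. Dnmt1, Fhl2, Psma2, Npr3, Cacna1h and marker genes at 0 were named outside this rule, after their values were seen. Alternatives were other scalings, peak centres, peaks of 500 bp, other gene bounds, gene minimums and annotation, other limma settings and leaving out each replicate. Peaks widened by 500 bp on each side and genes overlapping no other gene tested were added after seeing the data. Replicate numbers were not used to pair the samples, except in the replicate block. The p-values measure the spread between the deposited replicates only. Not all of the 140 named genes are described in the text. Some results are not reported here. Figures were drawn with matplotlib 3.10.9.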

Additional observations from a re-analysis of the deposited data

How the results depend on the processing

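The count of genes higher in TAC (1813) became 896 without scaling, 780 among genes of at least 50 kb and 731 with replicates at least 1 point apart, and 3067 to 4473 with a replicate left out. The count lower (2452) became 1516 and 733 among genes of at least 20 and 50 kb, and 3774 to 5556 with a replicate left out. The counts by gene length fall because fewer genes enter, and that at 1 point because a condition is added. Those with a replicate left out rise because a condition is dropped. As shares, 14.2% of genes of 50 to 100 kb were higher and 17.7% lower, and 20.9% and 15.1% of genes of at least 100 kb. Over all genes these shares were 11.7% and 15.8%. Among genes of at least 50 kb more were thus higher than lower, the reverse of all genes. With peak centres, 1085 of the 1813 higher genes and 1821 of the 2452 lower genes were called again on the same side. The mean difference of −1.20 points was −2.62 without scaling, −0.12 in peak centres per 10 kb and −2.20 to −0.20 with a replicate left out. Functional lists with a larger share higher than all genes (5) became 8 when scaled to the peak length in genes, 9 with peak centres, 9 with peaks of 500 bp, 9 at 20 kb, 3 with a gap of 1 point and 4 to 16 with a replicate left out, where 16 was without TAC replicate 2. limma's 0 calls became 47 with all 8 lists sharing the spread and were 0 under the other settings.

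The labels do not say whether same-numbered samples were processed together. Their deviations from the group means correlated at −0.01 over 15498 genes, which cannot show how the samples were processed. With the replicate block 2532 genes were higher and 3625 lower, and limma called 0 genes.

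Of the named genes, 28 of 64 on the higher side and 36 of 68 on the lower side kept their call in every alternative. Settings that drop a replicate or only take a part of the genes could not lose a call. They are among the 2355 recomputed values of the named genes, of which 2177 kept direction and call. The share kept is therefore no measure of how firm the calls were. Of the rest, 130 lost the call, 22 gained one, 8 moved and 18 turned. Without scaling these were Mlxip (−0.82, from 2.0), Fbln2 (−0.19, from 1.5) and Erg (−0.42, from 0.92). In peak centres per 10 kb and peaks of 500 bp they were Erg (−0.04 and −0.18), Dolpp1 (0.68 and 3.41, from −35.24), Acadvl (1.97 and 9.83, from −31.13), Pnpla2 (1.95 and 9.77, from −24.98), Adamtsl4 (0.69 and 3.93, from −36.89), Rhoc (0.12 and 0.62, from −32.55) and Myl3 (0.12 and 1.19, from −7.65), and Ndufs7 in peak centres (0.07, from −16.76). The cause was not tested. Depth is unknown, so that ground without a peak is not shown to lack the mark.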

Other observations

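Some genes of the fetal programme were under 5 kb and outside the genes tested. Nppa, which encodes the atrial natriuretic peptide and is 1.35 kb long, was covered to 45.2% in TAC replicate 1 and to 0% in TAC replicate 2 and both adult lists. Nppb and Tcf21 had no peak in any of the 4 lists. Among families taken by gene symbol, beside 11.7% of all genes higher and 15.8% lower (28.9% and 24.4% with TAC replicate 1 alone), 17 of 87 cytochrome P450 genes (19.5%) were higher in TAC and 5 (5.75%) lower, which became 5 and 5 without scaling and 30 (34.5%) and 10 (11.5%) with TAC replicate 1 alone. Of 47 ubiquitin-specific proteases, which remove ubiquitin from proteins, 4 (8.51%) were higher and 13 (27.7%) lower, and 10 (21.3%) and 22 (46.8%) with TAC replicate 1 alone. Mitochondrial ribosomal protein genes had 2 of 50 higher (4%) and 10 lower (20%), and 7 (14%) and 14 (28%) with TAC replicate 1 alone. Cadherins and protocadherins had 9 of 86 higher (10.5%) and 4 lower (4.65%), but 5 and 7 without scaling and 47 (54.7%) and 13 (15.1%) with TAC replicate 1 alone.

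When all 8 lists shared the spread, the 47 genes that limma called all lay on the same side by the rule, and 46 of them had no peak in either replicate of 1 point. Those lower in TAC included Pdp1, a phosphatase that activates pyruvate dehydrogenase, with 6.23% and 6.19% in the adult lists. Those higher in TAC included Npy1r, a receptor of neuropeptide Y. These genes were picked from the 47 after their values were seen.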
